A study of Gallus gallus with 2 samples.

Results

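The genes described here are 10 genes of the Notch pathway, NOTCH1, NOTCH2, JAG1, JAG2, DLL1, DLL4, HEY1, HEY2, RBPJ and LFNG, taken by their gene names in the deposited tables. Of them, 9 were found among 26656 listed genes and gene models, and no listed name matched HEY2, which was not analysed here. RNA-seq was done on cells labelled as SSCs (spermatogenic stem cells), isolated by enzyme digestion from testes of chicken embryos after 18.5 days of incubation and cultured with serum. The Blank library came from cells without treatment, and the shLSD1 library from cells given by transfection an interference vector against LSD1, an enzyme that removes methyl groups from histone H3. Each group had 1 library. The Blank cells received no control vector by their labels, so transfection and interference cannot be told apart, and there is no replicate spread to hold a difference against. All intervals given below therefore cover counting error only and compare 2 libraries, not 2 treatments.

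Notch signalling passes between touching cells. A ligand of the Jagged or Delta family on one cell (JAG1, JAG2, DLL1, DLL4) binds a receptor on its neighbour (NOTCH1, NOTCH2), the receptor is cut by an ADAM protease and by the γ-secretase complex, and the freed inner part joins the DNA-binding protein RBPJ in the nucleus and turns on target genes, among them the repressors HEY1 and HEY2. LFNG, a Fringe enzyme, adds a sugar to the receptors and shifts which ligand they answer to. In the fetal mouse testis this pathway is known for holding back the differentiation of Leydig cells, the steroid-making cells between the tubules.

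The libraries held 8731455 reads on listed genes in Blank and 8245826 in shLSD1. For LSD1 itself (KDM1A, ENSGALG00000000840) the count table gives 0 reads in Blank and 0 in shLSD1, also for the assembled model over it, so the interference could not be checked. Of 12 germ cell markers, NANOG was at 0, 7 others had under 20 reads over both libraries, and DDX4, TDRD1, GFRA1 and ZBTB16 had more. The germ cell markers summed to 445 reads in Blank and 518 in shLSD1, while LUM, a matrix gene of stromal cells, alone had 6098 and 4710. Of the markers under 20 reads, SYCP3 had 3 in Blank and 0 in shLSD1, but an assembled model over it held 309 and 250. With that model added, the germ cell markers summed to 754 and 768 reads. In such a bulk sample, fewer cells of a type and less RNA per cell cannot be told apart.

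Reads of 4 of the 9 genes were listed under a second gene model. The tables hold Ensembl genes and models that the authors assembled, and NOTCH1, LFNG, RBPJ and HEY1 each share their strand and place with such a model. LFNG, RBPJ and HEY1 are listed at 0 reads in both libraries. NOTCH1 is listed at 0 reads in Blank and 2 in shLSD1, too few for a ratio. A count of 0 allows up to 3 reads, or 0.344 CPM (reads scaled to a common library total) in Blank and 0.364 CPM in shLSD1. The models over these 4 genes held between 7 and 633 reads, and the files describe them by protein domains that belong to the gene in question: NOTCH and ankyrin domains over NOTCH1, a Fringe-like domain over LFNG, the LAG1 DNA-binding domain over RBPJ, and a helix-loop-helix with a Hairy Orange domain over HEY1. The other 5 genes (NOTCH2, JAG1, JAG2, DLL1, DLL4) have no assembled model on their strand, and all of them had reads. The tables as a whole showed the same split. Of 6640 protein-coding genes with a model on the same strand over at least 90% of the shorter span, 63.3% (95% interval 62.1% to 64.4%, Clopper-Pearson) were at 0 in both libraries, against 14.2% (13.5% to 14.9%) of 8665 genes with none. A listed 0 for LFNG, RBPJ or HEY1 is therefore no measure of absence, and their values are given below as those of the model over the gene, always named as such. How reads shared by a gene and a model were counted is not given. A model may therefore hold only part of the reads of its gene, and its level may be too low. The intervals do not cover this.

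Levels were compared between genes as the authors' FPKM, which are reads per model length and library total. NOTCH2 stood far above the other genes of the 9 as listed or as read from their models. Its level was 158 FPKM in Blank and 169 FPKM in shLSD1, above 97.0% and 97.3% of all listed genes with reads. The next was the model over LFNG with 21.3 FPKM in Blank and 31.7 FPKM in shLSD1, so NOTCH2 was 7.42 times as high in Blank and 5.34 times in shLSD1. JAG1, at 9.60 and 8.76 FPKM, was the ligand with the highest level in each library, and NOTCH2 stood 16.5 times above it in Blank and 19.3 times in shLSD1. DLL4 (0.499 and 0.588 FPKM) and the model over HEY1 (0.248 and 0.376 FPKM) were lowest in each library, apart from the rows of NOTCH1, LFNG, RBPJ and HEY1 under their own names.

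**Figure D1:**
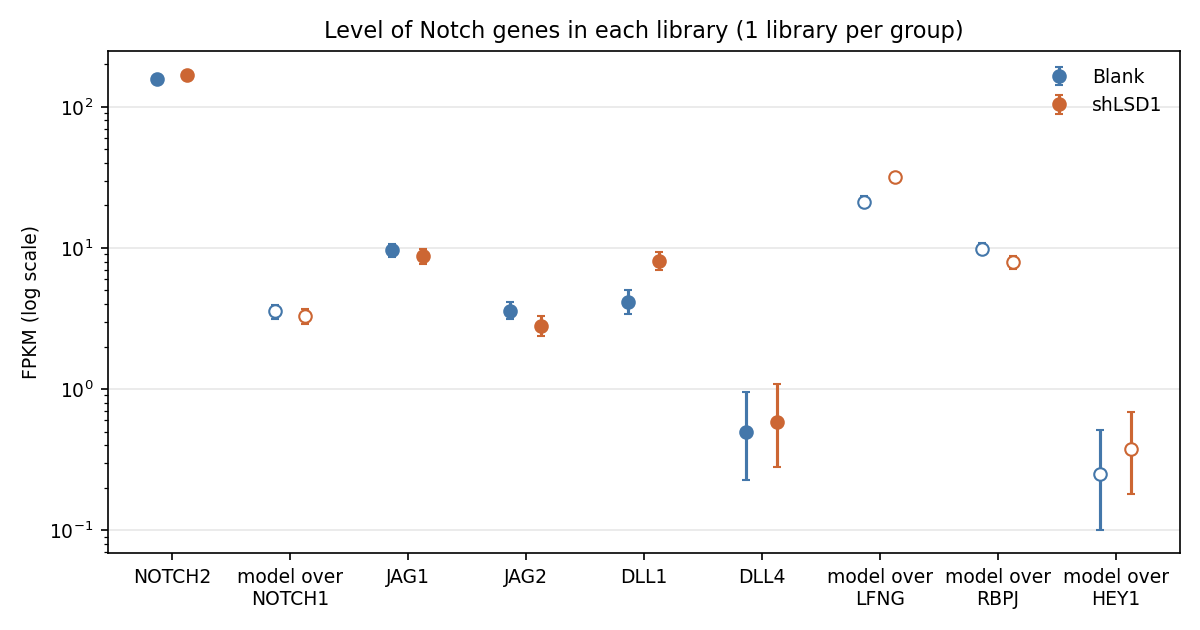
FPKM (log axis) of each Notch gene in the Blank library and the shLSD1 library, with 95% Poisson intervals of the reads as bars. Filled points are the genes as listed and open points the assembled models over genes listed at 0 to 2 reads. NOTCH2 lies at 158 and 169 FPKM and the other points lie at 31.7 FPKM or less.

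The order of the levels below the model over LFNG was only partly settled at this depth. In Blank, the model over RBPJ (9.87 FPKM) and JAG1 (9.60 FPKM) had overlapping 95% intervals and so did not differ beyond counting error. DLL1 (4.14 FPKM) overlapped in the same way with JAG2 (3.60 FPKM), and JAG2 with the model over NOTCH1 (3.55 FPKM), below JAG1. In shLSD1 DLL1 stood in the group of JAG1 and the RBPJ model. JAG1 (8.76 FPKM) overlapped with DLL1 (8.08 FPKM), and DLL1 with the model over RBPJ (7.91 FPKM). The model over NOTCH1 (3.29 FPKM) and JAG2 (2.81 FPKM) then formed a lower pair. DLL4 and the model over HEY1 overlapped in each library.

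The receptors were compared first. NOTCH2 (ENSGALG00000002922, chromosome 8, 4145809 to 4225658, plus strand, as the files give it without naming a genome build) was counted 13372 times in Blank and 13478 times in shLSD1. It ranked at number 74 of all rows by reads in Blank and at number 69 in shLSD1. As a share of the library it was slightly higher in shLSD1, with a log2 ratio of shLSD1 to Blank of 0.09 (exact 95% interval 0.06 to 0.13), a 1.07-fold difference. At this number of reads such a small difference exceeds counting error, which says nothing of how far 2 preparations of the same cells would differ. For NOTCH1 (ENSGALG00000002375, chromosome 17, 7809850 to 7842342, plus strand), the model over the gene was counted 303 times in Blank and 265 times in shLSD1, and the log2 ratio was -0.11 (-0.35 to 0.13). No difference was detectable for it. Of the reads of NOTCH2 and the NOTCH1 model together, NOTCH2 took 97.8% (97.5% to 98.0%) in Blank and 98.1% (97.8% to 98.3%) in shLSD1. NOTCH3 and NOTCH4 were matched by no name, so this is a share of the listed reads of NOTCH2 and the NOTCH1 model alone. It is too high for NOTCH2 if the model holds only part of the NOTCH1 reads.

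Among the ligands, DLL1 was higher in the shLSD1 library and JAG2 lower, while JAG1 and DLL4 did not differ beyond counting error. DLL1 (ENSGALG00000011182, chromosome 3, 40170700 to 40178161, plus strand), a Delta ligand, was counted 105 times in Blank and 193 times in shLSD1. Its level was 4.14 FPKM (95% interval 3.39 to 5.02) in Blank and 8.08 FPKM (6.98 to 9.31) in shLSD1. Its log2 ratio was 0.96 (0.61 to 1.32), a 1.94-fold higher share in the shLSD1 library, short of the 2-fold that 2.21% of the 12081 rows with at least 20 reads passed in this direction. Of the 6679 rows with at least 200 reads over both libraries, 12 had a higher ratio than DLL1 and 6666 a lower one. No assembled model overlaps DLL1 on its strand, and nothing listed overlaps it on the opposite strand.

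Both Jagged ligands had ratios below 0, JAG2 alone beyond counting error. JAG2 (ENSGALG00000011696, chromosome 5, 52023888 to 52086423, minus strand) was counted 216 times in Blank and 159 times in shLSD1. Its log2 ratio of -0.36 (-0.66 to -0.06) lay below 0 at the 95% level, but with a 99% interval only 2 of the genes, NOTCH2 and DLL1, still left out 0. The share of all rows that did so at the 99% level was not computed. JAG1 (ENSGALG00000009020, chromosome 3, 12844082 to 12878172, plus strand) was counted 308 times in Blank and 265 times in shLSD1, and its log2 ratio of -0.13 (-0.38 to 0.11) includes 0. JAG1 and JAG2 did not differ detectably from each other in this. The ratio of JAG1 to JAG2 reads was 1.43 in Blank and 1.67 in shLSD1, an odds ratio of 1.17 (exact 95% interval 0.891 to 1.53). At the start of JAG1, 798 bases overlap a gene on the opposite strand, with 27 and 24 reads. The kit named in the labels does not mark strand, so reads of JAG1 and of that gene in this stretch cannot be told apart.

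DLL4 (ENSGALG00000008514, chromosome 5, 23697384 to 23706337, plus strand), a Delta ligand best known from blood vessels, was counted 9 times in Blank and 10 times in shLSD1. The log2 ratio of 0.23 (-1.22 to 1.71) spans 2-fold in each direction. The pair of Delta ligands could not be told apart either, since the odds ratio of DLL1 to DLL4 was 1.65 (0.574 to 4.68).

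**Figure D2:**
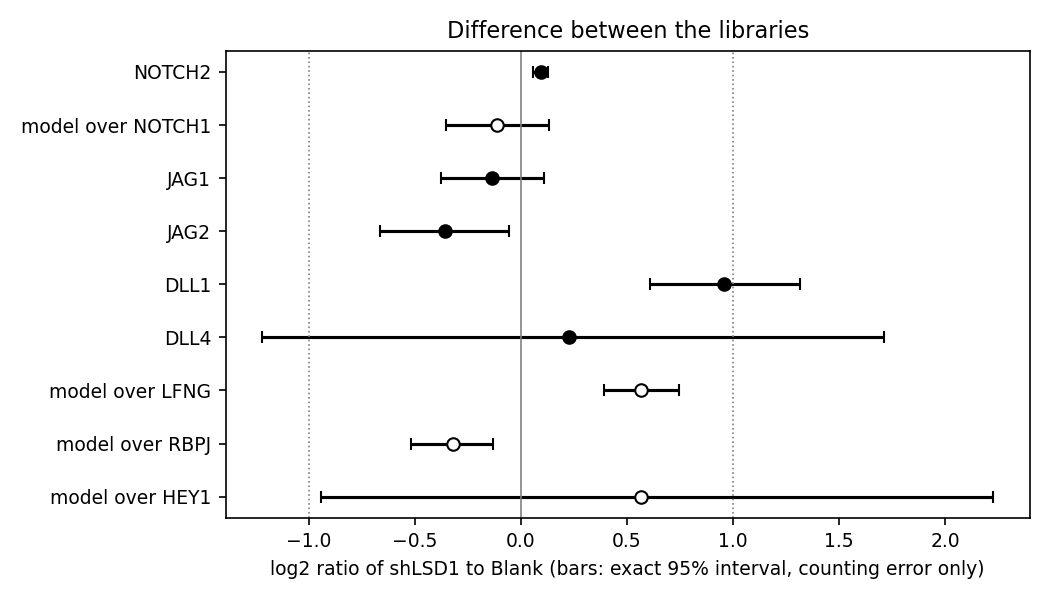
Log2 ratio of shLSD1 to Blank for each Notch gene (filled) or the assembled model over it (open), with exact 95% intervals that cover counting error only. Solid line, no difference, and dotted lines, 2-fold. DLL1 at 0.96 lies farthest to the right among the genes with at least 20 reads, and the intervals of DLL4 and the model over HEY1 are the widest.

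The sum of the ligand reads hardly differed while its make-up did. The 4 ligands together were counted 638 times in Blank and 627 times in shLSD1, and the log2 ratio of the sum was 0.06 (-0.10 to 0.22). DLL1 took 16.5% of these reads in Blank (13.7% to 19.6%, Clopper-Pearson) and 30.8% in shLSD1 (27.2% to 34.6%). JAG2 took 33.9% (30.2% to 37.7%) in Blank and 25.4% (22.0% to 29.0%) in shLSD1, and JAG1 48.3% (44.3% to 52.2%) and 42.3% (38.4% to 46.2%). These shares do not depend on how the libraries are scaled to each other. Per length, the summed ligand FPKM was 17.8 in Blank and 20.2 in shLSD1, so this sum was higher in shLSD1. No interval was computed for it. DLL1 held 23.2% of the summed ligand FPKM in Blank and 39.9% in shLSD1, and JAG1 held 53.8% and 43.3%.

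**Figure D3:**
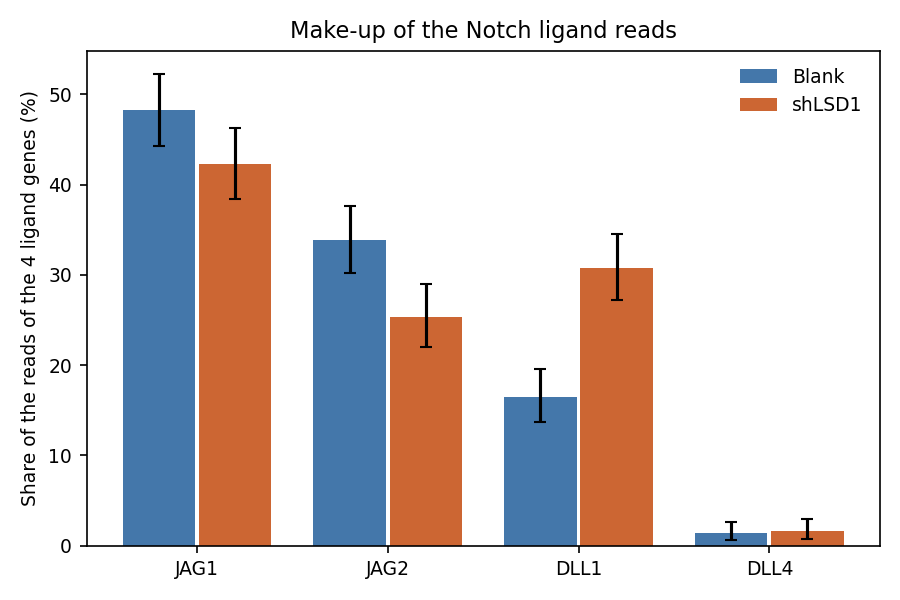
Share (%) of the reads of the 4 Notch ligand genes that each gene took in the Blank library and the shLSD1 library, with Clopper-Pearson 95% intervals. DLL1 goes from 16.5% to 30.8%, and JAG1 and JAG2 from 48.3% and 33.9% to 42.3% and 25.4%.

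Of 11 odds ratios computed, those of DLL1 to DLL4 and of JAG1 to JAG2 were planned and the others were chosen after the values were seen. Set directly against each other in this way, DLL1 differed from both Jagged genes. There were 0.341 DLL1 reads for each JAG1 read in Blank and 0.728 in shLSD1, an odds ratio of 2.13 (1.58 to 2.88). Against JAG2 the ratio went from 0.486 to 1.21, so that DLL1 had fewer reads than JAG2 in Blank and more in shLSD1, with an odds ratio of 2.49 (1.80 to 3.46). Against NOTCH2, which had the most listed reads of the 9, the odds ratio was 1.82 (1.43 to 2.34) for DLL1, 0.730 (0.590 to 0.902) for JAG2 and 0.854 (0.720 to 1.01) for JAG1.

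The Fringe enzyme and the nuclear factor were read from the models over them. The model over LFNG (the gene is ENSGALG00000004284, chromosome 14, 3222765 to 3232769, plus strand) was counted 452 times in Blank and 633 times in shLSD1. Its log2 ratio was 0.57 (0.39 to 0.75), a 1.48-fold higher share in shLSD1, and 101 of the 6679 rows with at least 200 reads had a higher ratio. The model over RBPJ, the factor through which all Notch receptors act on DNA (ENSGALG00000014365, chromosome 4, 72840334 to 72980021, minus strand), was counted 511 times in Blank and 386 times in shLSD1. It was lower in shLSD1, at a log2 ratio of -0.32 (-0.52 to -0.13). This model covers 39.0% of the span listed for RBPJ, introns included, where the models over LFNG and NOTCH1 cover 99.98% and 100% of theirs. Its model length is 5890 bases against 1458 for the RBPJ row, so how complete a stand-in it is cannot be told from the span. The odds ratio of the LFNG model to the RBPJ model was 1.85 (1.54 to 2.23), a comparison also chosen after the values were seen.

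HEY1 (ENSGALG00000027364, chromosome 2, 120538764 to 120541690, minus strand), a target gene of the pathway, had few listed reads. The gene lies wholly within its model, so whether its own level was low cannot be told. The model over it was counted 7 times in Blank and 10 times in shLSD1, and the log2 ratio of 0.57 had an interval of -0.94 to 2.23, so these reads are too few to show a difference.

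The counts of differences were set beside those over all rows. Of the 9 genes found, 4 (NOTCH2, JAG1, JAG2 and DLL1) had at least 20 reads over both libraries. None of these was at least 2-fold apart, where 4.03% of all 12081 rows with at least 20 reads were. At 1.5-fold DLL1 was the 1 gene called, where 13.4% of all rows were called and 7.04% were higher in shLSD1. The 95% interval lay above 0 for 2 of them (NOTCH2 and DLL1), against 12.9% of all rows, and below 0 for 1 (JAG2), against 15.4%. In all, 3 of 4 intervals left out 0, against 28.3% of all rows. All 4 had at least 200 reads, and among rows that deep 17.1% had an interval above 0, 22.2% one below 0, 39.3% one or the other, and 0.389% were 2-fold apart. With the models over NOTCH1, LFNG and RBPJ as further rows, 3 of 7 intervals lay above 0 and 2 below. Over 9940 protein-coding genes with overlapping models added, 13.2% lay above 0, 17.4% below, and 3.45% were 2-fold apart. With so few genes these shares are a description only. The median log2 ratio was -0.02 for the 4 genes and -0.11 for the 7 rows, beside -0.01 for all rows with at least 20 reads.

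**Figure D4:**
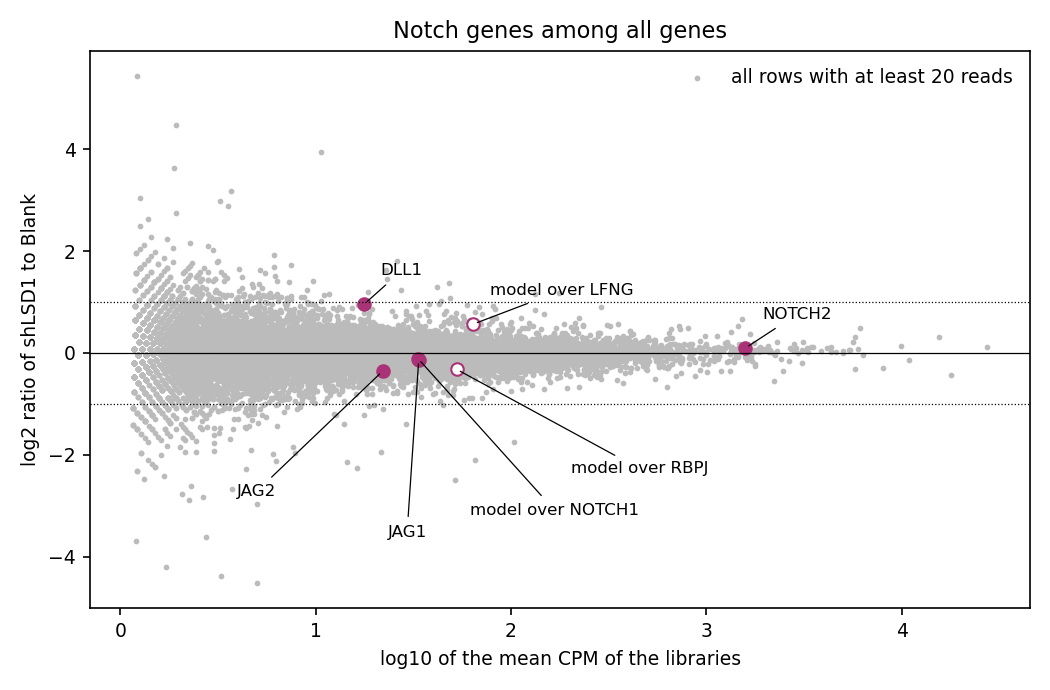
Log2 ratio of shLSD1 to Blank against log10 of the mean CPM for all 12081 rows with at least 20 reads (grey), with the Notch genes (filled) and the assembled models over them (open) in purple. The dotted lines mark 2-fold. DLL1 at 0.96 lies above 97.5% of the rows, and NOTCH2 at 0.09 lies among the most abundant rows.

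Other genes of the pathway were taken from a list by role. Of 70 genes listed, 57 were matched by name, 25 of them at 0 reads in both libraries, 16 with 1 to 19 reads and 16 with at least 20. Of the genes at 0, 21 have a model over them that holds reads. Among the 16 genes with at least 20 reads, the interval lay above 0 for 4, below 0 for 2 and included 0 for 10, and 1 was 2-fold apart, beside 12.9%, 15.4% and 4.03% of all rows for the first, the second and the last of these. The median log2 ratio of the 16 was 0.01.

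Of the genes that cut the receptor, APH1A and ADAM17 had at least 20 reads, and each was slightly higher in shLSD1. APH1A, a subunit of γ-secretase, had 1684 reads in Blank and 1786 in shLSD1, with a log2 ratio of 0.17 (0.07 to 0.26), and at 136 and 153 FPKM it had the highest level of the cleavage genes listed with reads. ADAM17, a protease that sheds many membrane proteins, had 2073 and 2143 reads, 0.13 (0.04 to 0.22). RFNG, another Fringe enzyme, had 825 and 740 reads, -0.07 (-0.22 to 0.07). MIB1, the ubiquitin ligase that readies ligands for use, had 1647 and 1495 reads, -0.06 (-0.16 to 0.04).

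In the nucleus, the acetyltransferase EP300, a partner of the active Notch complex, had 2746 reads in Blank and 2812 in shLSD1, 0.12 (0.04 to 0.19). SNW1, a further partner and the one with the highest FPKM (47.4 and 44.0), had 1093 and 955 reads, -0.11 (-0.24 to 0.01). Of the histone deacetylases that serve in repressor complexes, HDAC2 was lower, with 3083 and 2420 reads and a log2 ratio of -0.27 (-0.34 to -0.19). HDAC1, the gene with the highest FPKM of the list (288 and 291), did not differ detectably, with 8080 and 7692 reads and 0.01 (-0.03 to 0.06). FBXW7, which marks the freed Notch fragment and other proteins for destruction, had 31 and 65 reads and a ratio on the log2 scale of 1.14 (0.51 to 1.82). With the reads of a model on the same strand added it had 45 and 77 reads and 0.85 (0.31 to 1.42), no longer 2-fold apart. AAK1, a kinase of endocytosis with the highest FPKM among the turnover genes as listed, had 62 and 59 reads, 0.01 (-0.53 to 0.55). With the model over it added, AAK1 had 1647 and 1559 reads, 0.00 (-0.10 to 0.10).

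Among further targets, NRARP, which the pathway turns on and which then dampens it, was lower in shLSD1. It was counted 166 times in Blank and 99 times in shLSD1, 54.8 and 34.6 FPKM, with a log2 ratio of -0.66 (-1.04 to -0.30). HEYL, a relative of HEY1, had 313 and 265 reads, -0.16 (-0.40 to 0.08), and at 37.2 and 33.4 FPKM it stood well above the model over HEY1. That model may hold only part of the HEY1 reads. The other targets on the list, HES4, HES5, MYC, CCND1 and BHLHE40, were at 0 to 3 reads under their own names, and no listed name matched HES1, HES6 or BHLHE41. The ligand DLL3 was matched by no name either. Of the ligand relatives, DLK2, with the highest FPKM of these (1.87 and 1.66), had 25 and 21 reads, -0.16 (-1.08 to 0.73), and CCN3, a secreted protein that can bind NOTCH1, had 33 and 37 reads.

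**Figure D5:**
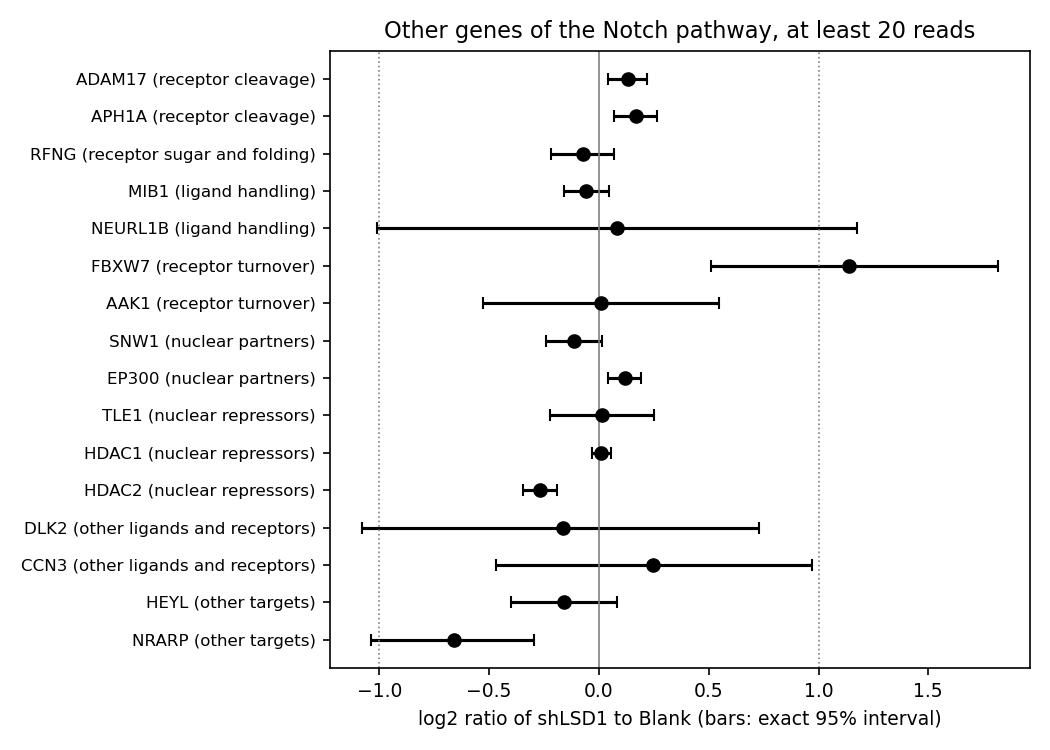
Log2 ratio of shLSD1 to Blank, with exact 95% intervals, for the 16 other genes of the Notch pathway that had at least 20 reads over both libraries, by role. FBXW7 at 1.14 is the one gene beyond the dotted 2-fold line, and NRARP at -0.66 lies farthest to the left.

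Markers of the cells in which Notch genes are used also differed between the libraries. For blood vessel cells, 12 of 12 markers were matched, CDH5 and ERG at 0, and the sum was 62.4 CPM in Blank and 71.7 CPM in shLSD1, with a log2 ratio of 0.20 (0.03 to 0.37). EGFL7 had the most, with 286 and 329. For perivascular and smooth muscle cells, 7 of 9 markers were matched, PDGFRB at 0, and the sum was 988 CPM in Blank and 1245 CPM in shLSD1, 0.33 (0.29 to 0.37). CSPG4 led it with 5398 of 8629 reads in Blank and 7068 of 10265 in shLSD1. RGS5 and DES were also higher in shLSD1. MCAM did not differ detectably, at -0.04 (-0.12 to 0.04), and MYH11 with its model was lower, at -0.62 (-1.14 to -0.12). For Sertoli cells, which nurse the germ cells, 8 of 8 were matched, AMH, GATA4 and WT1 at 0, and the sum was 215 and 268 CPM, 0.32 (0.23 to 0.41). CLDN11 led it with 1255 of 1879 reads in Blank and 1544 of 2210 in shLSD1, and DMRT1 was also higher. SOX9 at 0.00 (-0.30 to 0.31), FSHR at 0.05 (-0.43 to 0.52) and INHA at 0.24 (-0.57 to 1.06) did not differ detectably.

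The summed stromal and Leydig lists were lower in the shLSD1 library. The stromal list, with 6 of 7 matched and DCN, PDGFRA, COL1A2 and PTCH1 at 0, gave 750 and 637 CPM, -0.23 (-0.29 to -0.18). LUM held 6098 of its 6545 reads in Blank and 4710 of its 5253 in shLSD1. TCF21, the other stromal marker with reads, was higher in shLSD1, with 447 and 543 reads, 0.36 (0.18 to 0.55). The Leydig list, with 6 of 7 matched and NR5A1 at 0, gave 82.3 and 66.0 CPM, -0.32 (-0.48 to -0.16). CYP17A1 held 551 of its 719 reads in Blank and 380 of its 544 in shLSD1. STAR was also below 0, at -0.54 (-1.28 to 0.15), while CYP11A1 at 0.24 (-0.17 to 0.65) and LHCGR at 0.31 (-0.54 to 1.18) were above it. The median log2 ratio of the 4 Leydig markers with at least 20 reads was -0.11. The 12 germ cell markers gave 51.0 and 62.8 CPM, 0.30 (0.12 to 0.49), led by ZBTB16 with 219 and 279 reads and GFRA1 with 149 and 192. Other germ cell markers went the other way, such as DDX4 with 23 and 11 reads, -0.95 (-2.17 to 0.11), DND1 with 12 and 5 and TDRD1 with 16 and 11, and the median log2 ratio of the 4 markers with at least 20 reads was -0.0035. For macrophages, with 5 of 7 matched and C1QB at 0, the sum was 29.5 and 32.0 CPM, 0.12 (-0.14 to 0.37), led by CSF1R with 177 and 186 reads. For red blood cells, 6 of 8 were matched, HBAA, HBE1 and HBZ at 0, with 19 and 17 reads in all, led by HBBA with 10 and 10. HBZ is listed in 2 rows and was read from the first alone. Of these markers at 0, an assembled model with reads lies over 4 of 4 in the stromal list, 3 of 3 in the Sertoli list, 1 of 1 each in the perivascular, Leydig and macrophage lists, and 1 of 2 (ERG) in the vessel list, so a 0 for these is no measure of absence. None lies over CDH5, over NANOG or over the 3 red blood cell genes at 0. With such models added, the log2 ratio was 0.31 (0.17 to 0.45) for the vessel list, 0.29 (0.25 to 0.32) for the perivascular list and 0.11 (0.06 to 0.17) for the Sertoli list. It was then -0.31 (-0.34 to -0.28) for the stromal list, -0.25 (-0.37 to -0.13) for the Leydig list and 0.11 (-0.04 to 0.26) for the germ cell list. The germ cell model added lies over SYCP3, which had 312 and 250 reads with it, -0.24 (-0.48 to 0.01). The part of these shifts in the values of DLL1, JAG2 and the models over LFNG and RBPJ was not tested. Some single vessel markers differed as much as DLL1 or nearly so. Their log2 ratios were 0.81 (0.25 to 1.41) for TIE1, 0.99 (-0.10 to 2.21) for ESAM and 1.34 (0.50 to 2.31) for ENG with its model. Other vessel markers had ratios below 0, with intervals that include 0. These were PECAM1 at -0.37 (-0.86 to 0.11), KDR at -0.27 (-1.40 to 0.81), EMCN at -0.04 (-0.58 to 0.50) and TEK, with 17 reads over both libraries, at -1.10 (-3.04 to 0.43). All of these were named after their values were seen.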

How the data were processed

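RNA-seq was done on 2 samples, 1 library per group from 1 µg of total RNA, so no test across genes was possible and samples could not be paired. The authors deposited read counts per gene model, as whole numbers without normalization, and FPKM values. The deposited FPKM equal the counts divided by model length and by a library total 0.646% (Blank) and 0.461% (shLSD1) above the sum of the listed counts. A deposited table of the authors' own comparison (adjusted counts, fold changes, p-values) was not used, nor were 4 columns of values that match no sample label. The submitters' processing notes name Bowtie 0.12.2 and the mouse builds mm8 and mm9; aligner, counter and build for the chicken gene tables are not given in the sources used here.

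Ratios were taken between shares of the listed totals, with a prior count of 0.5, on the log2 scale. Intervals are 95% Clopper-Pearson intervals of the share of a gene's reads in shLSD1, and conditional exact intervals for odds ratios. Intervals cover counting error only. PCR copies count as reads, so the intervals may be too narrow even for that. Rows that reached 20 reads in the libraries together were checked for a 2-fold difference and for an interval without 0. Genes were found by the gene names in the files, and 7 listed genes by older symbols in a RefSeq table of assembly GRCg7b, used for names only. Members and lists were chosen with earlier results of these data known. Genes named are the 10 members, pathway genes 2-fold apart or with an interval without 0, and the top gene of each role or cell type list. Others were named as a count of a few, as listed at 0 or as further markers of a cell type list, after their values were seen. Intervals were tried on simulated counts that varied by counting error alone, which says nothing of the spread between preparations. Alternatives were other scalings (edgeR TMM, DESeq2 size factors, upper quartile, totals leaving out the top 20 genes), a prior count of 5, FPKM with a pseudocount of 0.1 or 1, other filters and thresholds, and reads summed with overlapping models. Software was matplotlib 3.10.9, pandas 2.3.3, scipy 1.17.1 and numpy 2.4.6 in Python 3.11.15, and DESeq2 1.42.0 and edgeR 4.0.16 in R 4.3.3.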

Additional observations from a re-analysis of the deposited data

How the results depend on the processing

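All 72 alternative values of the log2 ratios of single genes and assembled models stayed within the 95% interval of the value reported and kept its sign. Summing reads over genes and overlapping models could change only the value of the model over NOTCH1. For the others there was no overlapping model, or the gene itself was at 0 reads. For DLL1 they ran from 0.82 (FPKM with a pseudocount of 1) to 0.98 (upper-quartile scaling), under 2-fold in each of its 8 alternatives. For JAG2 they ran from -0.37 to -0.27, for NOTCH2 from 0.08 to 0.12, and for the models over LFNG and RBPJ from 0.55 to 0.59 and from -0.33 to -0.29. None of the 4 other scalings moved a log2 ratio by more than 0.03. With a 1.5-fold threshold, 1 gene, DLL1, was called in place of 0. The count of genes whose interval leaves out 0 was 3 of 4, beside 28.3% of all rows with at least 20 reads and 39.3% of those with at least 200. It was 5 of 7 when overlapping models were added to their genes or counted as separate rows, alternatives chosen after seeing the data. For separate rows the same shares of 28.3% and 39.3% apply. With models added, 13.2% of 9940 protein-coding genes had an interval above 0 and 17.4% one below. With models required to overlap by 90% both ways the count was 4 of 6, and with a 99% interval it was 2 of 4, without JAG2. The share of all rows was not computed for either of these settings. The median over the 4 genes crossed 0 under upper-quartile scaling, at 0.01. Adding overlapping models to the wider pathway list, also chosen after seeing the data, raised the genes read from 16 to 42, with 7 intervals above 0 (from 4), 7 below (from 2) and 0 genes 2-fold apart (from 1), beside 13.2%, 17.4% and 3.45% of 9940 protein-coding genes counted this way. These moves follow from the rows and reads added. No ratio of NOTCH1, LFNG, RBPJ or HEY1 under its own name could be given, and no odds ratio of HEY1 to HEY2 or of NOTCH1 to NOTCH2. No paired analysis was possible because Blank and shLSD1 are single libraries, and neither could be left out. The depth limits DLL4 and the model over HEY1, whose intervals are the widest of those given.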

Other observations

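Genes of the wider pathway with no or few reads under their own names were read from the assembled models over them, a step taken after the values were seen. ADAM10, an ADAM protease that cuts the receptor, was counted with its model 1002 times in Blank and 679 times in shLSD1. The log2 ratio was -0.48 (exact 95% interval, -0.62 to -0.34). NEURL1B, a ubiquitin ligase of the Neuralized family, had 871 and 1144 reads with its model, 0.48 (0.35 to 0.61), and MIB2, a relative of MIB1, had 132 and 90, -0.47 (-0.87 to -0.07). Among repressors, CTBP2 had 579 and 393 reads, -0.48 (-0.66 to -0.29), and SPEN had 162 and 190, 0.31 (0.00 to 0.62). Among targets, CCND1 (a cyclin) had 1241 and 997 reads, -0.23 (-0.36 to -0.11), and BHLHE40 had 4812 and 6299, 0.47 (0.42 to 0.53).

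A further 3 assembled models carry the Hairy Orange domain, shared by proteins of the HES and HEY families, and overlap no Ensembl gene on their strand. The most abundant had 503 reads in Blank and 550 in shLSD1, on the log2 scale a ratio of 0.21 (0.03 to 0.39), and 109 and 127 FPKM. The others had 19 and 16 reads in Blank and 32 and 25 in shLSD1. The files give these models no gene name, so none was assigned.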
